A study of Homo sapiens with 6 samples.

Results

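The chaperonin TRiC (also called CCT) was followed through the 8 genes of its subunits, TCP1, CCT2, CCT3, CCT4, CCT5, CCT6A, CCT7 and CCT8. The rule names the subunits of 1 complex and uses no measured value, and all 8 were found among the 58051 genes of the deposited table and lay above the filter on low values that 12912 genes passed. The question was whether the mRNAs of the 8 subunits move together. The libraries are 6 RNA-seq libraries of cells labelled NTera-2 (NT2), an established embryonal carcinoma line. By the sample titles, 3 received mimics of piR-36249, a piRNA (a class of small RNA known mainly from germ cells), and 3 received a scramble control. The treatment field speaks of overexpression of the mimics or of the scramble, and no time or dose is given. The genotype field of the mimic samples and the design text instead name a knockdown of piR-36249. Groups were taken from the titles, and every direction is mimic minus scramble. Nothing states that replicates came from separate cultures, so the spread behind every p-value may be purely technical.

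TRiC is a chaperone of the cytosol built of stacked rings, in which each of the 8 related subunits has a fixed place. It encloses unfinished proteins, binds and splits ATP, and releases the folded protein. Actins and tubulins depend on it, as do many proteins with WD40 repeats, among them the mitotic activator CDC20. Prefoldin hands it new chains, and phosducin-like proteins bind to it as cochaperones. The working ring holds the subunits in equal number. Protein was not measured, so mRNA levels say nothing directly about how much complex a cell holds.

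Values are FPKM, a read count scaled to gene length and library depth. Genes averaging 0.5 FPKM or more were tested with limma on log2(FPKM + 1), and a gene passed at an adjusted p under 0.05, which is what rose and fell mean here. Depth, recovered from the whole-read steps of the FPKM values, was 48.0 to 62.7 M reads per library, and between 11646 and 56303 reads per library lay behind a subunit's value. Of 10 embryonal carcinoma markers all stayed below the filter, and 6, NANOG and SOX2 among them, were at 0 throughout. Of 10 endothelial markers 6 were above 1 FPKM in all libraries, while KDR, VWF, EMCN and CLDN5 stayed below the filter. KRT8 and KRT18 of the epithelial list were also above 1 FPKM in all libraries, while EPCAM, CDH1, KRT5 and KRT14 stayed below the filter. KRT8 and KRT18 made up nearly all of the sum of that list, 293 to 323 FPKM with scramble and 303 to 318 FPKM with mimic. These cells thus went against their label in both groups, and the lists do not name 1 cell type. The 6 tested endothelial markers all rose, where 18.7% of all tested genes did, with CDH5 going from 88.0 ± 1.62 to 124 ± 2.69 FPKM (limma adjusted p = 7.11e-05; SD, n = 3 each), and the sum of the list ran from 219 to 226 FPKM with scramble and from 280.0 to 289 FPKM with mimic. Of 8 fibroblast markers only THY1 was tested (0.31, limma adjusted p = 0.00415), of 6 epithelial markers KRT8 (0.20, adjusted p = 0.0106) and KRT18 (-0.12, adjusted p = 0.0993), and of 8 blood markers none, with sums of at most 0.363 FPKM. The part of these markers in the values of TRiC was not tested. In bulk RNA, fewer cells of a kind and less RNA per cell cannot be told apart.

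Of the 8 subunits, CCT4, CCT7 and TCP1 fell with mimic, and no subunit rose. The other 5 had fold changes below 0 that did not pass the test. The count of 3 lower among 8 stands beside 16.8% of all tested genes lower with mimic, and the count of 0 higher beside 18.7%. In either direction 35.5% of tested genes passed, a share close to that of the subunits. The median log2 fold change of the 8 was -0.07, beside 0.0025 for all tested genes. The values of the subunits ran from -0.33 for CCT4 to -0.03 for CCT3, so their sizes were not alike.

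The promoter sequences of the 3 subunits that fell are shown with that of CCT3, the subunit with the smallest change. They come from RefSeq on GRCh38.p14, where 7 of the 8 subunits matched an entry (CCT6A did not), and each runs from 250 bases before a transcript start to 50 bases after it. CCT4 lies at chr2:61888622-61888921 on the minus strand, CCT7 at chr2:73234058-73234357 on the plus strand, TCP1 at chr6:159789553-159789852 on the minus strand and CCT3 at chr1:156338243-156338542 on the minus strand. Each is written 5′ to 3′ along its gene, and capitals mark the motifs named after the sequences.
CCT4: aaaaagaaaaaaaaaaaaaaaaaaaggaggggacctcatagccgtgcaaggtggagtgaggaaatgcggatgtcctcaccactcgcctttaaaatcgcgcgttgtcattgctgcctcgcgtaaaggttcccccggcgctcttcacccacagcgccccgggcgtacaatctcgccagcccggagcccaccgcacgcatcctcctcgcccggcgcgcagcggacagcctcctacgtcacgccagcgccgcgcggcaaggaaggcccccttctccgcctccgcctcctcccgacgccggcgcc
CCT7: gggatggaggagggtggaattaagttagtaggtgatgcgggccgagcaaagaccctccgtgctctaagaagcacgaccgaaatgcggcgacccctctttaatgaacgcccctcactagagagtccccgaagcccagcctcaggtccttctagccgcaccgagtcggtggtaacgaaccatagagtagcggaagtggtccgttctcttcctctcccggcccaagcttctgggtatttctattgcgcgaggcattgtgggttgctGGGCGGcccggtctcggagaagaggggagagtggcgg
TCP1: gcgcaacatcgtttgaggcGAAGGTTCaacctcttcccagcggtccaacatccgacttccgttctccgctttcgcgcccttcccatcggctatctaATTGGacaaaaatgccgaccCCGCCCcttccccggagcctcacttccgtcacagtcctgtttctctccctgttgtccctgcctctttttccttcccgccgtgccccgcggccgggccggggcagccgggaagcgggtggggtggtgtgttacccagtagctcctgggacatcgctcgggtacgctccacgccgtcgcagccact
CCT3: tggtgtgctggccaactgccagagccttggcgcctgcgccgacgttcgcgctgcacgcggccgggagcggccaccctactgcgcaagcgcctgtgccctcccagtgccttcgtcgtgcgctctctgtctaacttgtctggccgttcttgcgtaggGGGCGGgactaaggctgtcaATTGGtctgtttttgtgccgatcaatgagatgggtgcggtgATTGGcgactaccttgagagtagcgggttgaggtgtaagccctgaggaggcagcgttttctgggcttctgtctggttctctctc

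Promoter elements of 6 kinds were searched on both strands: the inverted half-sites of heat shock factors (GAANNTTC or TTCNNGAA), the E-box CACGTG, the CCAAT box CCAAT, the ETS site CCGGAAGT, the cyclic AMP response element TGACGTCA and the GC box GGGCGG. No marked motifs overlap. The CCAAT box was found in 4 of the 7 subunit windows, TCP1, CCT2, CCT3 and CCT8, beside 34.6% of all 35116 promoter windows. The GC box was found in 5 of 7, TCP1, CCT2, CCT3, CCT7 and CCT8, beside 45.0%. GAANNTTC was found in TCP1 alone, beside 6.77% of all windows, and TTCNNGAA in none of the 7, beside 7.74%. CCGGAAGT was found in CCT2 alone, beside 4.14%, while CACGTG (7.26% of all windows) and TGACGTCA (1.85%) were found in none. The windows of CCT4 and CCT5 held none of the motifs, and no motif searched was common to CCT4, CCT7 and TCP1. A match describes letters only, and these windows follow 1 RefSeq start, the one nearest the start of the GENCODE gene where there were several. That start lies 29581 bases from the GENCODE start for CCT3, 888 for CCT7 and 616 for CCT5. For TCP1, CCT2, CCT4 and CCT8 the distance is 125 to 149 bases. A window without a motif, as for CCT5, therefore says nothing about the sequence at other starts of the gene.

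CCT4, the delta subunit, showed the largest change. Its gene (ENSG00000115484) spans chromosome 2, 61868089 to 61888804, on the minus strand of GRCh38. It measured 107, 104 and 104 in mimic replicates 1 to 3 and 134, 131 and 132 in scramble replicates 1 to 3, in FPKM. The highest mimic library thus lay well under the lowest scramble library. The group means were 105 ± 1.87 and 132 ± 1.28 FPKM (SD, n = 3 each), a change of -20.5%, and the log2 fold change was -0.33 (SE 0.034, limma adjusted p = 3.55e-04). CCT4 stayed past the threshold in all 16 alternative settings run, with values between -0.34 and -0.31. Purified human CCT4, like CCT5, is known to form rings of itself.

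CCT7, the eta subunit, was the most abundant of the 8 and also fell. It lies on the plus strand of chromosome 2 (ENSG00000135624, 73233420 to 73253021) and measured 223, 214 and 218 FPKM in the mimic libraries and 249.9, 248 and 255 FPKM in the scramble libraries. All mimic values were below all scramble values, with means of 218 ± 4.65 and 251 ± 3.77 FPKM (SD, n = 3 each). Its log2 fold change was -0.20 (SE 0.037, limma adjusted p = 0.00454), a change of -13.1%. It stayed past the threshold in the same 16 settings.

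TCP1, the alpha subunit that gave the complex its name, fell least of the 3. On chromosome 6 (ENSG00000120438, 159778498 to 159789749, minus strand) it gave 68.8, 68.2 and 68.7 FPKM with mimic and 75.2, 73.6 and 75.4 FPKM with scramble. The mimic libraries lay within 1 FPKM of each other and under every scramble library. The means were 68.6 ± 0.294 and 74.7 ± 0.989 FPKM (SD, n = 3 each), a change of -8.28%, with a log2 fold change of -0.12 (SE 0.033, limma adjusted p = 0.0225). This call is the weakest of the 3. It was lost without mimic replicate 1 (adjusted p = 0.0511), 2 (0.0586) or 3 (0.068) and without scramble replicate 1 (0.0856), as well as with no variance trend (0.0514), and adjusted p ran from 0.00959 to 0.0856 over the settings.

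In CCT5 and CCT2 the groups did not overlap, yet the test was not passed. CCT5, the epsilon subunit, known for a variant that causes a sensory neuropathy, lies on chromosome 5 (ENSG00000150753, 10249921 to 10266412, plus strand). It gave 69.8, 68.8 and 64.4 FPKM with mimic and 71.7, 72.1 and 71.7 FPKM with scramble. Replicate 3 was the low one of the mimic libraries, and the log2 difference was -0.09 (95% interval -0.18 to 0.01, limma adjusted p = 0.138). CCT2, the beta subunit (ENSG00000166226, chromosome 12, 69585334 to 69601570, plus strand), was the least abundant, at 59.97, 61.0 and 58.9 FPKM with mimic and 63.3, 61.6 and 61.7 FPKM with scramble. The gap between the groups was small beside the spread within them, and the log2 difference was -0.05 (95% interval -0.13 to 0.03, limma adjusted p = 0.275). Together with CCT4, CCT7 and TCP1 this makes 5 of 8 subunits whose mimic libraries all lay under the scramble libraries, beside 23.2% of tested genes (49.2% did not overlap in either direction).

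For CCT8, CCT6A and CCT3 the groups overlapped. CCT8, the theta subunit (ENSG00000156261, chromosome 21, 29055805 to 29073797, minus strand), gave 77.4, 74.9 and 72.6 FPKM with mimic and 76.7, 77.0 and 78.8 FPKM with scramble, with a log2 difference of -0.05 (95% interval -0.13 to 0.04, limma adjusted p = 0.372). CCT6A, the zeta subunit of somatic cells (ENSG00000146731, chromosome 7, 56051630 to 56063989, plus strand), gave 88.2, 85.6 and 79.8 FPKM with mimic and 88.5, 87.9 and 85.1 FPKM with scramble, with a log2 difference of -0.04 (95% interval -0.15 to 0.06, limma adjusted p = 0.477). In both genes mimic replicate 1 lay among the scramble values and mimic replicate 3 was the lowest of the 6. CCT3, the gamma subunit (ENSG00000163468, chromosome 1, 156308968 to 156367873, minus strand), gave 191, 197 and 184 FPKM with mimic and 197, 191 and 197 FPKM with scramble. Its log2 difference of -0.03 (95% interval -0.13 to 0.06, limma adjusted p = 0.533) turned to 0.02 after quantile normalization (adjusted p = 0.77). The intervals of the 5 subunits that did not pass reach from -0.18 to 0.06.

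**Figure D1:**
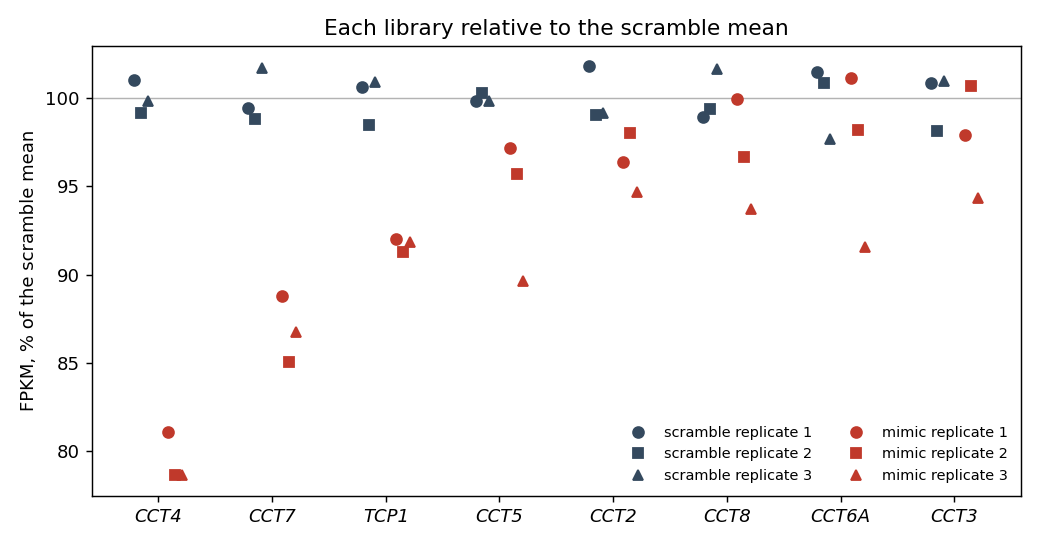
FPKM of each library as a percentage of the scramble mean of the same gene (vertical axis) for the 8 subunits (horizontal axis, ordered by fold change), with colours for the groups and marker shapes for the replicate numbers. The mimic libraries of CCT4 sit between 78.6% and 81.1%, those of CCT7 between 85.1% and 88.8% and those of TCP1 between 91.3% and 92.0%, while for CCT8, CCT6A and CCT3 mimic and scramble points mix.

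The plot of libraries relative to scramble also shows how the subunits varied within the mimic group. Mimic replicate 3 was the lowest of all 6 libraries for 6 of the 8 subunits, the exceptions being TCP1 and CCT7. For CCT4 it all but tied with mimic replicate 2, at 104.002 beside 104.007 FPKM. Mimic replicate 3 stood at 89.6% of the scramble mean for CCT5, 91.6% for CCT6A and 94.4% for CCT3, while mimic replicate 1 stood at 97.2%, 101% and 97.9%. Mimic replicate 3 is also the library with the lowest depth, 48.0 M recovered reads. Without it the median log2 fold change of the 8 subunits was -0.05, CCT6A moved to -0.0048 and CCT3 to -0.0098, whereas CCT4 and CCT7 kept values past the threshold.

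**Figure D2:**
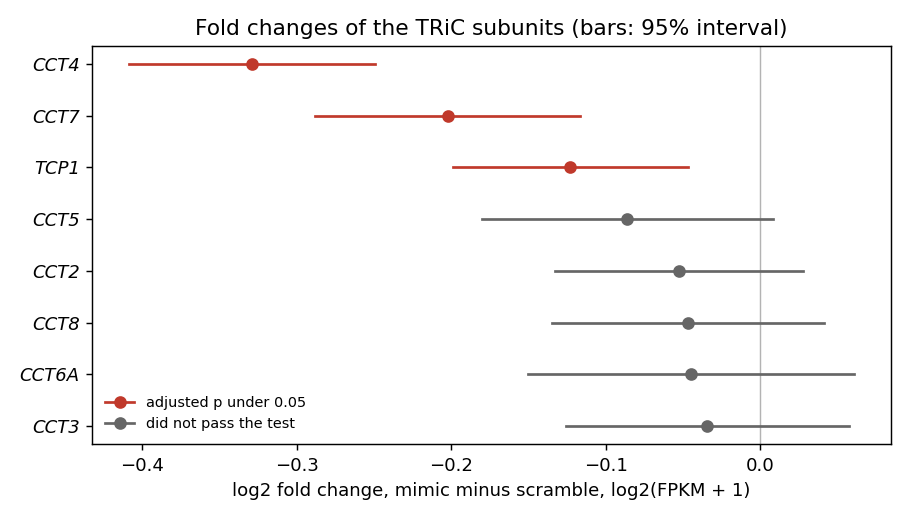
Log2 fold change of each subunit (horizontal axis, mimic minus scramble on log2(FPKM + 1)), with bars for the 95% interval of the limma fit. CCT4 at -0.33, CCT7 at -0.20 and TCP1 at -0.12 passed the test, and the intervals of the other 5 subunits include 0.

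Unequal change appears as a shift in the shares of the subunits in their summed FPKM. FPKM divides by annotated exon length, so the sizes of the sum and of the shares depend on the length used. The summed FPKM of the 8 genes was 886, 873 and 851 in mimic replicates 1 to 3 and 956, 943 and 957 in scramble replicates 1 to 3, a change of -8.66% with no overlap. CCT4 and CCT7 made up 60.2 FPKM of the fall of 82.5 FPKM, or 72.9%. The share of CCT4 in the sum went from 13.9 ± 0.0963% with scramble to 12.1 ± 0.156% with mimic (SD, n = 3 each), and that of CCT7 from 26.4 ± 0.276% to 25.1 ± 0.576%. The shares of CCT2, CCT3, CCT6A and CCT8 were higher in every mimic library than in any scramble library, with CCT3 going from 20.5 ± 0.166% to 21.9 ± 0.523% and CCT8 from 8.14 ± 0.106% to 8.62 ± 0.107%. Shares sum to the whole, so a fall of 1 raises the rest. In exact two-sided permutation tests each of these 6 shares gave p = 0.1, below which 3 libraries against 3 cannot go (0.133 after Benjamini-Hochberg adjustment over the 8 shares). The share of TCP1 was 7.89% with mimic and 7.85% with scramble (exact permutation p = 0.9) and overlapped, as did that of CCT5 with 7.78% and 7.55% (exact permutation p = 0.2).

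By position in the ring, the subunits known to bind ATP more tightly, TCP1, CCT2, CCT4 and CCT5, had 2 of 4 lower (TCP1 and CCT4) and a median log2 fold change of -0.10. The subunits of the side that binds ATP less tightly, CCT3, CCT6A, CCT7 and CCT8, had 1 of 4 lower (CCT7) and a median of -0.05. Among all tested genes 16.8% were lower. Subunits that fell thus lay on both sides, and the difference between the sides was not tested.

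The subunits differed more in level than in change. In scramble libraries the order in FPKM was CCT7, CCT3, CCT4, CCT6A, CCT8, TCP1, CCT5 and CCT2, with the highest 4.04 times the lowest, and neighbours in this order did not overlap. With mimic the order of the means was the same, but TCP1 (68.2 to 68.8 FPKM) lay inside the range of CCT5 (64.4 to 69.8 FPKM). FPKM divides by the union of all annotated exons, which ranged from 2830 bases for CCT4 to 5839 for CCT5. Divided instead by the principal coding transcript, a choice made after seeing the data, 6 subunits came close together, between 111 for CCT5 and 141 for TCP1 over all libraries. CCT3 (360.4) and CCT7 (440.0) still stood apart, at 3.25 and 3.97 times CCT5, while CCT4 (133) was no longer above the rest. The order below CCT3 therefore rests on the length used.

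**Figure D3:**
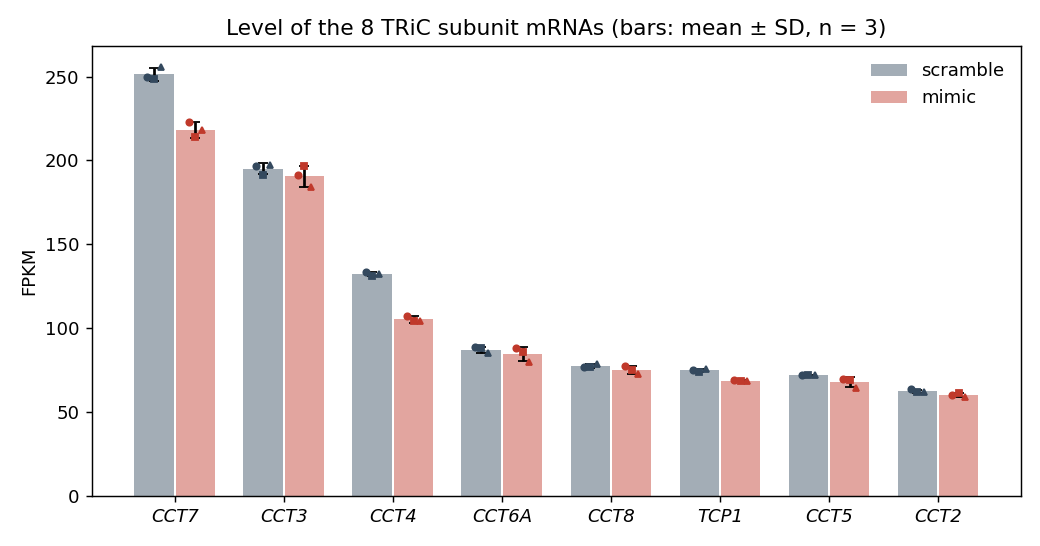
FPKM of the 8 subunits (vertical axis from 0) in scramble and mimic libraries, ordered by the mean over all libraries, with bars for the mean, error bars for the SD of 3 libraries and 1 point per library. CCT7 and CCT3 stand above the other subunits in both groups, and the gap between the groups is widest for CCT7 and CCT4.

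Reads of the subunits could be shared with copies of the genes. The table holds 17 pseudogenes and relatives named after the subunits, of which 14 stayed below the filter of 0.5 FPKM and 7 had no read in any library. CCT6B, the testis form of CCT6A, reached at most 0.035 FPKM. CCT6P1 had 4.09 ± 0.369 FPKM with mimic and 3.81 ± 0.140 with scramble (SD, n = 3 each), and its recovered reads were at most 2.18% of those of CCT6A. CCT8P1 reached at most 174 reads in a library and CCT6P3 at most 176, and none of these 3 pseudogenes passed the test. Both copies named after CCT4 were among the 7. A low count for a copy does not show how reads that match both places were counted, so sharing of reads was not tested.

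Neighbouring genes on the other strand gave readouts beside the subunits, chosen after the subunits' values were seen. The rule took protein-coding genes whose start lies within 1 kb of the start of a subunit gene on the opposite strand. MRPL18, a protein of the mitochondrial ribosome that starts 63 bases from TCP1, fell from 54.2 ± 2.69 to 39.0 ± 1.02 FPKM (SD, n = 3 each), a log2 fold change of -0.46 (limma adjusted p = 2.87e-04). PSPH, the last enzyme of serine synthesis, starts 26 bases from CCT6A and fell from 21.3 ± 0.445 to 16.4 ± 1.01 FPKM (-0.36, limma adjusted p = 0.00131), although CCT6A itself did not pass the test. COMMD1 beside CCT4 (-0.05, limma adjusted p = 0.685), ATPSCKMT beside CCT5 (-0.08, adjusted p = 0.523) and PRADC1 beside CCT7 (0.19, adjusted p = 0.128) did not pass. Whether counting used strand is not given in the sources used here. On the opposite strand COMMD1 overlaps CCT4, ACAT2 overlaps TCP1 and TSACC overlaps CCT3. Reads of those pairs cannot be told apart without strand. With scramble COMMD1 stood at 7.39 FPKM, ACAT2 at 6.50 FPKM and TSACC at 0.656 FPKM. These values do not show whether reads of a shared stretch were counted for either gene or dropped.

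Prefoldin, the complex that brings new actin and tubulin chains to TRiC, had 2 of 9 listed genes lower and none higher, beside 16.8% and 18.7% of all tested genes, with a median log2 fold change of -0.09. The list also holds UXT, URI1 and PDRG1 of the prefoldin-like complex. PFDN2 fell from 177 ± 4.41 to 149 ± 7.53 FPKM (log2 -0.25, limma adjusted p = 0.00514) and PDRG1 from 20.6 ± 1.04 to 16.7 ± 1.11 FPKM (-0.29, adjusted p = 0.0067; SD, n = 3 each). UXT (-0.16, limma adjusted p = 0.193) and PFDN6 (-0.09, adjusted p = 0.24) did not pass. Within the prefoldin hexamer itself PFDN2 alone fell, and the other 5 subunits did not pass the test.

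Among phosducin-like cochaperones PDCL rose, the only 1 of 3 tested, where 18.7% of all tested genes were higher. PDCL, which works with TRiC in building G protein beta-gamma dimers, measured 21.8, 23.5 and 21.4 FPKM with mimic and 13.8, 15.6 and 13.7 FPKM with scramble. Every mimic library lay above every scramble library, with a log2 fold change of 0.59 (SE 0.060, limma adjusted p = 3.18e-04), opposite to the falls of CCT4 and CCT7. PDCL3 (0.03, limma adjusted p = 0.726) and TXNDC9 (0.13, adjusted p = 0.152) did not pass, and PDCL2 was listed at 0.

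Tubulin cofactors take tubulin from TRiC and join it to dimers, and their list also holds the related genes TBCEL and ARL2. The list went both ways, with 2 of 6 tested higher (18.7% of all tested genes) and 1 lower (16.8%). TBCD rose from 7.64 ± 0.183 to 9.03 ± 0.222 FPKM (0.21, limma adjusted p = 0.00626), TBCEL fell from 2.39 ± 0.118 to 1.79 ± 0.119 FPKM (-0.29, adjusted p = 0.00838) and the small GTPase ARL2 rose by 0.22 (adjusted p = 0.0476; SD, n = 3 each). ARL2 overlapped between the groups and lost its call in 7 of 16 settings. TBCA did not pass (-0.19, limma adjusted p = 0.0508).

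Of the tubulins that TRiC folds, 3 of 11 fell and 1 rose, a share near the 35.5% of all tested genes that passed in either direction. TUBB4B fell from 685 ± 32.1 to 551 ± 10.9 FPKM (-0.31, limma adjusted p = 0.00208), TUBA1C from 153 ± 4.18 to 114 ± 3.53 FPKM (-0.42, adjusted p = 2.63e-04) and TUBA1B from 214 ± 6.64 to 180.4 ± 4.91 FPKM (-0.25, adjusted p = 0.00298; SD, n = 3 each). TUBA1A rose from 64.7 ± 3.79 to 93.3 ± 1.33 FPKM (0.52, limma adjusted p = 2.06e-04). The alpha-tubulin genes are near-identical in their coding parts, so reads could be split between them unevenly. No actin gene or actin-related gene of 5 tested passed, where 35.5% of all tested genes passed in either direction. With so few genes a count of 0 says little beside that share. ACTB stood at -0.05 (limma adjusted p = 0.53), ACTR2 at -0.04 (adjusted p = 0.545), ACTR3 at 0.06 (adjusted p = 0.306) and ACTA2 at 0.14 (adjusted p = 0.156). At an unadjusted p under 0.05 the actin count was also 0, and it was 0 with voom on recovered reads.

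Among WD40 proteins and other known clients 8 of 17 fell and 1 rose, beside 16.8% lower and 18.7% higher of all tested genes, with a median log2 fold change of -0.14. CDC20, the mitotic activator whose folding needs TRiC, fell from 188 ± 5.42 to 114 ± 0.932 FPKM (-0.71, limma adjusted p = 1.88e-05). RPTOR, the scaffold of the kinase complex mTORC1, fell by 0.62 on the log2 scale (adjusted p = 9.23e-05), the mitotic kinase PLK1 fell by 0.61 (adjusted p = 1.22e-04) and the G protein subunit GNB4 fell by 0.50 (adjusted p = 2.19e-04). These falls were larger than that of any TRiC subunit. The client that rose was STAT3, a transcription factor of cytokine signalling (0.36, limma adjusted p = 0.00166), named because it was the only 1. Over the 16 settings 6 to 9 of the 17 clients passed in either direction, with 6 without scramble replicate 1.

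In the list for the HSP70 and HSP90 system of the cytosol, which passes clients to TRiC, 4 of 11 genes fell and 2 rose. Among all tested genes 16.8% fell and 18.7% rose. The list also holds the transcription factors HSF1 and HSF2, neither of which passed the test. DNAJB1, a cochaperone of HSP70, fell from 60.3 ± 2.1 to 36.2 ± 0.936 FPKM (-0.72, limma adjusted p = 2.80e-05) and HSP90AA1 from 165 ± 2.52 to 146 ± 9.16 FPKM (-0.18, adjusted p = 0.026). DNAJA1 rose from 70.1 ± 1.36 to 80.7 ± 4.37 FPKM (0.20, adjusted p = 0.0126) and HSPH1 from 18.1 ± 0.718 to 21.3 ± 1.47 FPKM (0.22, adjusted p = 0.0192; SD, n = 3 each). The count of 6 is loose: it was 2 without scramble replicate 1, 3 without mimic replicate 1, mimic replicate 3, scramble replicate 2 or scramble replicate 3, and 2 without the filter on low values. HSP90AA1 lost its call in 6 and HSPH1 in 4 of the 16 settings.

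Relatives of TRiC did not pass the test, where 35.5% of all tested genes passed in either direction. Among so few genes a count of 0 says little beside that share. Of 5 tested, HSPD1, the chaperonin of mitochondria, stood at 0.07 (limma adjusted p = 0.28), its partner HSPE1 at 0.04 (adjusted p = 0.526), and the BBS chaperonins of cilium assembly BBS10 at -0.08 (adjusted p = 0.216) and BBS12 at 0.12 (adjusted p = 0.28). None had an unadjusted p under 0.05, and none was called with voom on recovered reads.

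**Figure D4:**
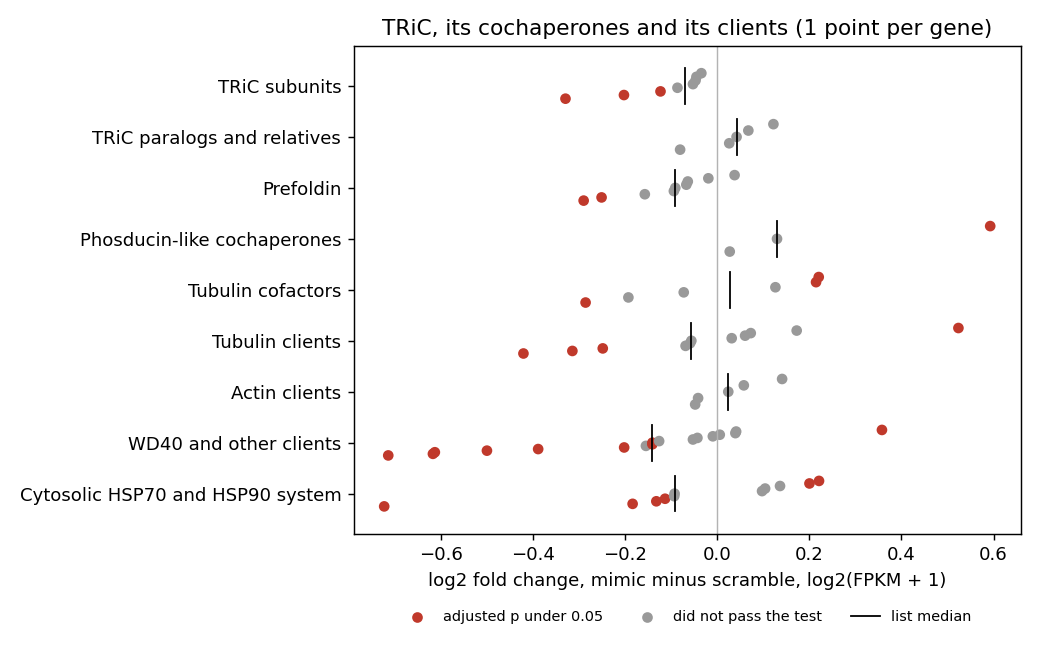
Log2 fold change (horizontal axis, mimic minus scramble on log2(FPKM + 1)) of every tested gene of TRiC and of 8 related lists, 1 point per gene and a line at each list's median. The TRiC subunits lie between -0.33 and -0.03, while the tubulin clients, tubulin cofactors and cytosolic heat shock genes spread to both sides of 0.

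Genes with the profile most like the mean of the 8 subunits were sought among the 6745 other genes whose mean reached 5 FPKM. Likeness was the root mean square difference of log2 values over the 6 libraries, each gene centred on its scramble mean. The nearest were EIF2B3 (0.0138), a subunit of a translation initiation factor, NOL11 (0.0143), a nucleolar protein, DCTD (0.0175), a deaminase of nucleotide synthesis, NUSAP1 (0.0191), a spindle protein, and SEPTIN9 (0.0191). By the same measure TCP1 was at 0.0206 and CCT5 at 0.0276 from the mean profile of which they are part. CCT2 was at 0.0473, CCT8 at 0.0505, CCT6A at 0.0577, CCT3 at 0.0606, CCT7 at 0.0660 and CCT4 at 0.152. The mean profile therefore described TCP1 well and CCT4 poorly.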

How the data were processed

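The authors deposited FPKM of 58051 Ensembl genes in 6 libraries. They also deposited a comparison table of 401 genes, whose columns, per the file headers, are a mean signal of normalized counts, a fold change in log2 units with its error, a score (the test statistic) and p-values with and without adjustment. The latter holds only changes of at least 1.00 on the log2 scale and none of the 8 subunits. Tools named, per the submitters' processing notes, are DESeq2 1.26.0, featureCounts 2.0.1, HISAT2 2.1.0 and Trimmomatic 0.39, on GRCh38. No annotation, strand setting or FPKM formula is given in the sources used here.

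Symbols and GENCODE 29 exon lengths were matched to 57447 genes; TBCE was not matched. On log2(FPKM + 1), limma 3.58.1 (R 4.3.3, variance trend on) was fitted to the 12912 genes averaging 0.5 FPKM or more, with Benjamini-Hochberg adjustment over all of them. The pseudocount shrinks the fold changes of low genes. Permutation tests used SciPy 1.17.1. The model was checked on simulated data. FPKM times exon length gave whole multiples of a step for 95.7% to 96.0% of values up to 50 reads (tolerance 0.02 reads), which sets the depth.

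The complex, and so its members, and the other lists were chosen with earlier results of these data known, although the rule for members uses no value. All subunits are given, and of each other list up to 4 members with the smallest p. The 5 nearest profiles follow a fixed measure. Alternatives covered pseudocounts, filters, scalings, variance model, replicate block, each library left out and voom on recovered reads. The levels per principal transcript and the neighbouring genes were added after seeing the data.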

Additional observations from a re-analysis of the deposited data

How the results depend on the processing

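Over 16 alternatives (pseudocount, filter, scaling, variance model, replicate block, single libraries removed, voom on recovered reads) 3290 to 5036 genes passed the test (4584 as reported). CCT4 and CCT7 kept their direction and their side of the threshold in all 16 settings. TCP1 (-0.12 as reported) was short of the threshold with no variance trend (-0.12) and without 4 of the 6 single libraries, with values of -0.13 to -0.12 when 1 library was left out, so 2 or 3 subunits passed. CCT3, which never passed, turned from -0.03 to 0.017 after quantile normalization, and was -0.06 to -0.0098 with a library left out. The change of the share of TCP1 (log2 0.0064) was -0.0041 on recovered reads and -0.0107 to 0.0172 with a library left out. After quantile normalization 5 tubulin cofactors passed in place of 3, and without the filter on low values 2 genes of the HSP70 and HSP90 list in place of 6, or 2 to 4 with a library left out. The cause was not tested. With the replicate block 4609 genes passed, TCP1 had adjusted p = 0.0322, CCT4 0.00211 and CCT7 0.0107, and no call of a subunit changed. The labels give same-numbered libraries only a shared number. Their deviations from the group means correlated at r = -0.06, 0.24 and 0.05 across genes, and those of the other pairs at -0.27 to 0.23. With 3 libraries per group these values cannot decide whether the libraries were paired. Of 1394 values of 88 other genes, 1295 kept their direction and side, 68 lost and 15 gained a call, and 16 changed sign, in 9 genes that did not pass the test as reported; no value of a gene that passed changed sign. On the TPM scale these were URI1 (0.002002) and FZR1 (0.0125), after quantile normalization ACTG1 (-0.0101) and HDAC3 (-0.00102), and HDAC3 with median-ratio scaling (-0.000123) and voom (-0.00236). With a library left out MKKS ran from -0.01001 to 0.0583, PDCL3 from -0.0223 to 0.0697, FZR1 from -0.054 to 0.0219, GNB2 from -0.0049 to 0.104, CCNE1 from -0.0833 to 0.0255, HDAC3 from -0.0085 to 0.0191 and COMMD1 from -0.133 to 0.0266. In the fit as reported, the log2 differences of CCT2, CCT3, CCT5, CCT6A and CCT8, all under 0.1 in size, had 95% intervals that include 0. Without mimic replicate 1 CCT5 was at -0.109 (limma adjusted p = 0.109), short of the threshold.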
